A study of Mus musculus with 8 samples.

Results

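The genes described here encode the subunits of potassium channels. They were chosen by symbol: every array probe whose accession matched a mouse symbol beginning with Kcn in a RefSeq table was taken, apart from antisense and opposite-strand transcripts and a few symbols not reported here, and a probe had to be well above background in at least 1 channel. This matched 89 genes on 122 probes, of which 81 genes on 110 probes met the rule on background. Of these, 76 were bright enough to be tested, among 21941 genes tested in all. Kcng3, Kcng4, Kcnj5, Kcnk15 and Kcnk7 met the rule but were well above background in too few channels of every age to be tested. At the edge of the rule, Kcng4 was above background in 1 adult channel and in no other. Kcna10, Kcne1, Kcnh6, Kcnj1, Kcnk18, Kcnmb3, Kcnn1 and Kcnv2 were well above background in none of the 16 channels and are not described further.

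The RNA came from microvessels of mouse forebrain at postnatal day 5 (P5), postnatal day 10 (P10) and adulthood. The labels used here give no strain, sex, genotype or pooling of animals, and all 3 ages were prepared the same way, with particles up to 70 µm kept. Such a preparation holds capillaries and other small vessels together with cells that stay attached to them. Each of 2 replicates filled 1 slide of 4 two-colour arrays: P5 against adult, P5 against P10, and P10 against adult in both dye orientations.

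Potassium channels let potassium ions leave or enter a cell and so set its resting voltage, end its action potentials and clear potassium from the space around it. A channel is built from pore-forming alpha subunits, often joined by auxiliary subunits that alter its gating or its transport to the membrane. In brain vessels the opening of potassium channels in smooth muscle, pericytes and endothelium is known to widen the vessel. Astrocyte endfeet around the vessel take up and release potassium through inward rectifiers, and neurons use voltage-gated potassium channels to shape firing.

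The label of the tissue was checked against its markers, and the values touch every result below. The mean log2 signal of 16 endothelial genes was 11.78 and 11.59 at P5, 13.05 and 12.96 at P10 and 14.06 and 14.01 in adults, and all 16 were lower at P5 than in adults. All 16 were above background at each age. Of 9 pericyte and 8 smooth muscle genes tested, 8 and 6 were lower at P5 than in adults, at median log2 ratios of -1.35 and -2.04. Markers of other cells were present too. Among them, 9 of 10 immature neuron genes were higher at P5 (median 2.25) and 7 of 10 at P10 (median 0.89). Of 11 mature neuron genes, 6 were lower at P5 (median -0.62) and 6 at P10 (median -0.88), and none was higher at either age. Of 10 myelinating oligodendrocyte genes, P5 had 7 lower and 1 higher. All 8 oligodendrocyte precursor genes and all 9 erythroid genes tested were higher at P5, and astrocyte genes were mixed, with 3 of 10 higher and 4 lower. Of 9 microglial genes, 2 were higher at P5. In RNA from whole preparations, fewer cells of a type and less RNA per cell cannot be told apart, and the part of these cell types in the results below was not tested.

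The promoters below belong to genes of several channel groups that were called different between ages. Not all of these calls held under other processing. The promoters are shown so that the sequence before each start can be set beside its gene's values. Each line gives the 250 bases before the annotated start of the gene from 5′ to 3′ on the gene's own strand, taken from RefSeq on GRCm38.p6. Capitals mark matches to GGGCGG (a GC box), CCAAT or TATAAA on either strand. Kcnk10 (chr12:98578214-98578463, minus strand) and Kcne1l (chrX:142306199-142306448, minus strand) had the highest ratios of P5 to adult. Kcnj10 (chr1:172340960-172341209, plus strand) and Kcnj9 (chr1:172329323-172329572, minus strand) are neighbours that point away from each other, with no protein-coding gene between them, and both were lower at the young ages. Kcnma1 (chr14:24004206-24004455, minus strand) was lower at P10 than at P5 and in adults, and Kcnmb1 (chr11:33962763-33963012, plus strand) encodes its smooth muscle partner subunit.

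Kcnk10: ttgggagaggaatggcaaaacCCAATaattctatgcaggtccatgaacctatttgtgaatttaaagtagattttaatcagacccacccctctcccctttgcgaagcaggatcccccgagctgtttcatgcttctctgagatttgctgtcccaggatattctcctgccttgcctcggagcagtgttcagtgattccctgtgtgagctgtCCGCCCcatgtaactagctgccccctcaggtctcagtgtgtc

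Kcne1l: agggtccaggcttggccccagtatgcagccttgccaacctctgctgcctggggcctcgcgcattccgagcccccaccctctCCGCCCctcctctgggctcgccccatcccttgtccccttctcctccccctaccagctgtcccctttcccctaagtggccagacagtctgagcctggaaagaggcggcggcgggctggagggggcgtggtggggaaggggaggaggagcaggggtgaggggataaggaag

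Kcnj10: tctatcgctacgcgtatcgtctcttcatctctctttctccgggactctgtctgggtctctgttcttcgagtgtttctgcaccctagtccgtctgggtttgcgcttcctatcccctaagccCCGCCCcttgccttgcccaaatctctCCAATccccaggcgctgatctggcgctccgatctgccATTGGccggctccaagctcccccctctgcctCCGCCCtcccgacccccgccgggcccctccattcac

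Kcnj9: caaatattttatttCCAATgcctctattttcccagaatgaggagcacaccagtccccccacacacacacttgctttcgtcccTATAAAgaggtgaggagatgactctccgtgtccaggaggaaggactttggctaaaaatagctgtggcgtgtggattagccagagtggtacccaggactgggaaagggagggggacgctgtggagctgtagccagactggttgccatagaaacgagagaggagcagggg

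Kcnma1: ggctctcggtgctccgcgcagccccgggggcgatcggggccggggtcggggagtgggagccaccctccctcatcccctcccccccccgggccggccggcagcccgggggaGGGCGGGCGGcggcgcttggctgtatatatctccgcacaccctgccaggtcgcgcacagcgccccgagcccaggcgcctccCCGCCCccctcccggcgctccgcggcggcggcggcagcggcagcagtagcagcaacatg

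Kcnmb1: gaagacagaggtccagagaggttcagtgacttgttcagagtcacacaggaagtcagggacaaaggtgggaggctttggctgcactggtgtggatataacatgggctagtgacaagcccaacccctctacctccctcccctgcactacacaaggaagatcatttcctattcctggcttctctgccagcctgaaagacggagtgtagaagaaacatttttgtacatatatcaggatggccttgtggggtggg

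The Kcnma1 window had the highest GC content of the 6, at 79.2%, with 3 GC boxes, 2 of which share bases in the run GGGCGGGCGG. Kcnmb1 was at 50.8% with none of the motifs, and Kcnj10 held 2 GC boxes and 2 CCAAT matches in opposite orientations. Kcnj9 was the only one of the 6 with a TATAAA match, next to 1 CCAAT match. Of the 76 tested genes, 56 had a window in the RefSeq table. Among these 56, 51.8% held GGGCGG, against 32.9% of all 27018 windows in the table, 28.6% held CCAAT against 34.5%, and 3.57% held TATAAA against 13%. The letters TTCAGCACC, the left part of the RE1 element, which binds a repressor of neuronal genes, were in 0 of the 56 windows and in 0.285% of all windows. Median GC content was 58.8% in the 56 windows and 52% in all. The 56 belong to genes bright enough to be tested, whereas all windows include those of untested genes, so the 2 sets are not alike. A match in these letters describes the window and is not evidence of a bound site.

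Levels below are log2 single-channel signals, 1 value per replicate in the order replicate 1 and replicate 2, after normalization between channels. A difference is a log2 ratio fitted from the arrays with its standard error (SE, n = 2 replicates), and it is not the plain difference of 2 levels. A gene was called higher or lower when its limma p-value, adjusted by Benjamini-Hochberg over all 21941 genes, was below 0.05. The labels do not say whether the replicates came from separate animals, so the spread between the 2 preparations at hand could be technical. SEs and p-values come from that spread, pooled over the 3 ages and moderated by limma towards a value shared by all genes. The 3 comparisons share the RNA of each age and are therefore not independent of each other. Ratios of dim probes are compressed towards 0 by the offset used in background correction, and levels of different genes are not compared because each probe has its own brightness.

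The first comparison asked how potassium channel genes of P5 microvessels differed from those of adult microvessels. Of the 76 tested genes, 18 were higher at P5 and 21 lower, or 23.7% and 27.6%. The background over all genes tested was 30.1% higher and 23% lower, so the shares called lay near the background: 51.3% of the channel genes were called in any direction, against 53.1% of all genes. At least 2-fold differences were called in 7 genes upwards and 7 downwards, where 12.7% and 6.54% of all genes passed. The median log2 ratio was -0.19 for the channel genes and 0.09 for all genes, and the median was -0.26 in replicate 1 and -0.10 in replicate 2. In 70 of the 76 genes both replicates had the same sign. Kcnk10, Kcne1l and Kcna4 had the highest ratios and Kcna1, Kcnj12 and Kcne4 the lowest.

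**Figure D1:**
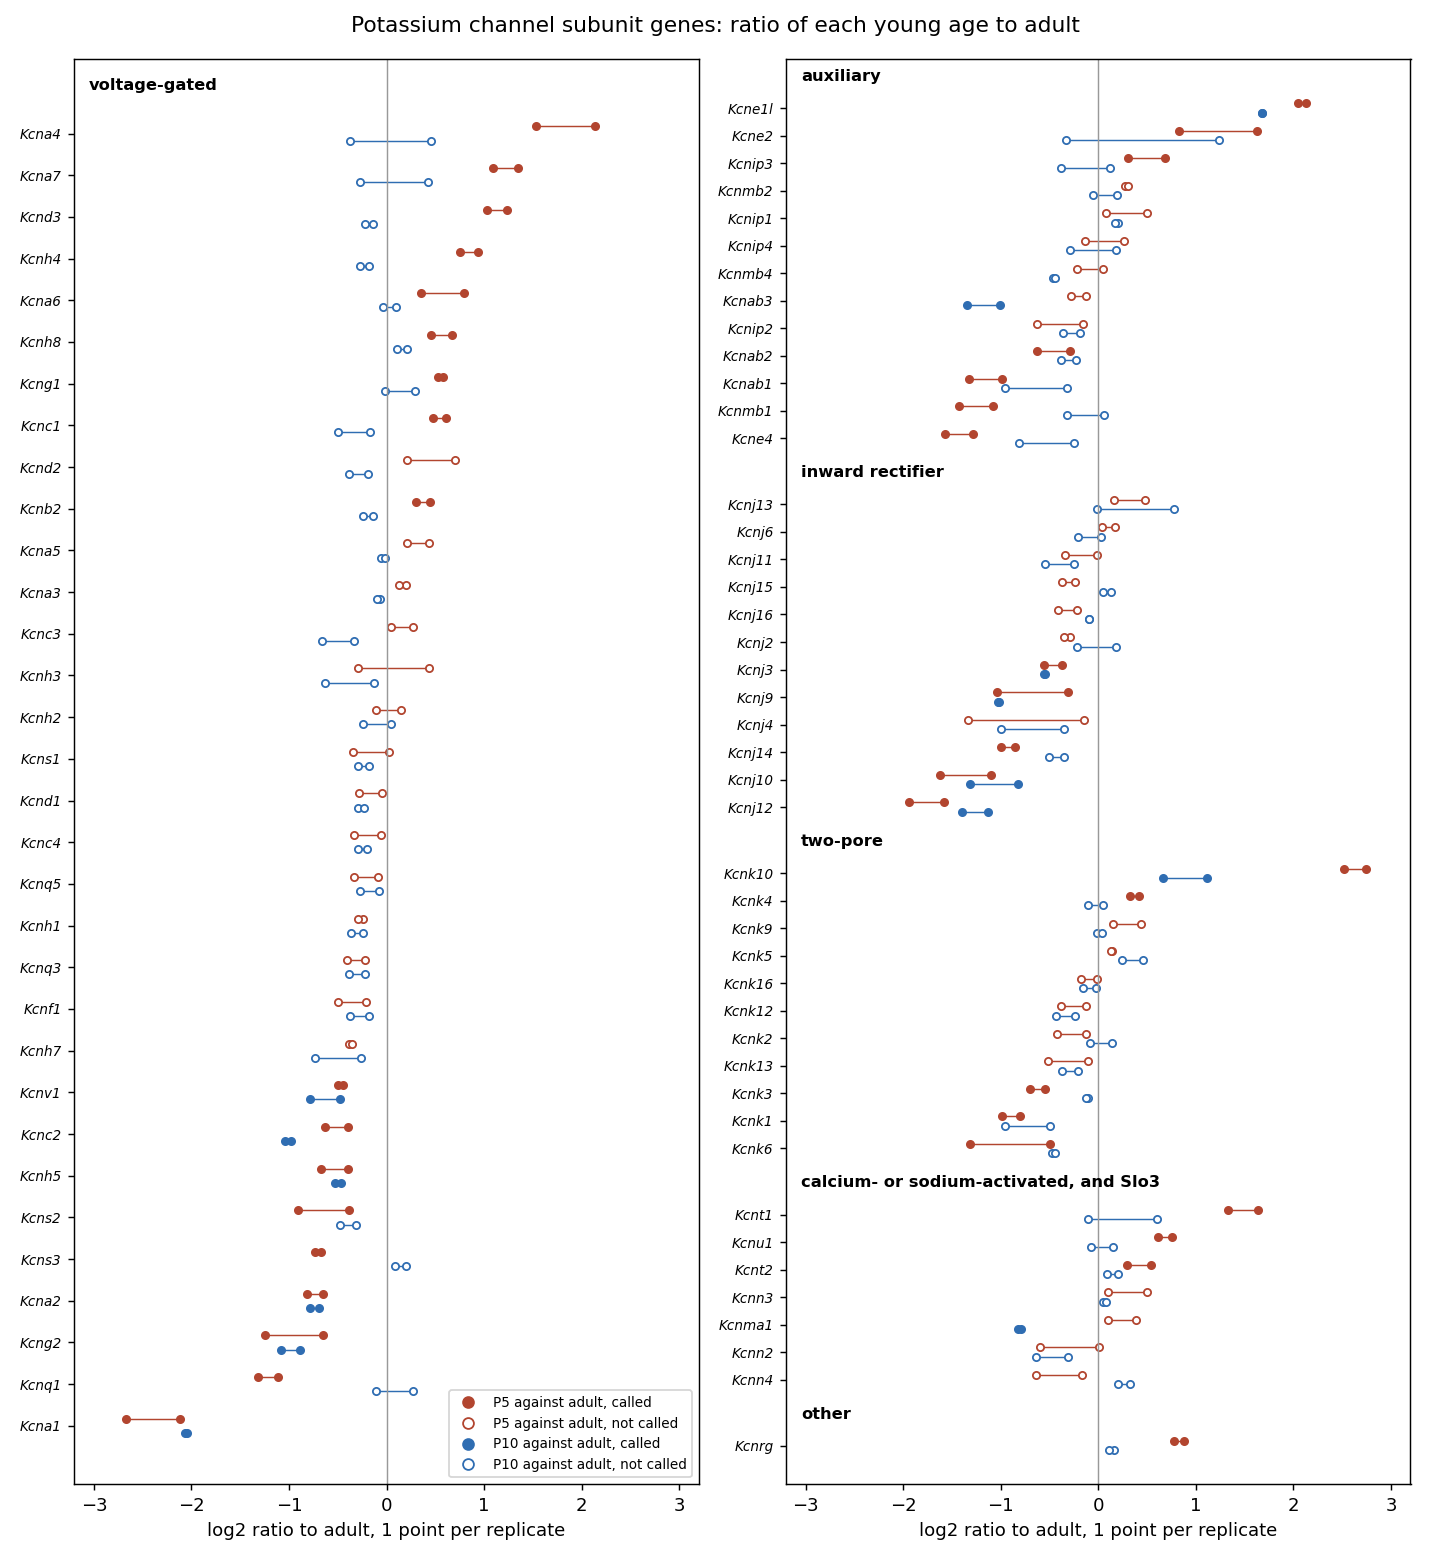
Log2 ratio of P5 (red) and P10 (blue) to adult for the 76 tested potassium channel genes, by channel group, with 1 point per replicate joined by a line. Filled points mark genes called at an adjusted p below 0.05. The mean ratios run from -2.40 (Kcna1) to 2.63 (Kcnk10) at P5, and at P10 the blue filled points lie left of 0 for all called genes but Kcne1l and Kcnk10.

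Voltage-gated alpha subunits, which open on depolarisation, were the most numerous group and went both ways. Of 32 tested, 9 were higher at P5 than in adults and 9 were lower, against 30.1% and 23% of all genes. Kcna1, a Shaker-type subunit of axons, had log2 signal levels of 7.73 and 7.99 at P5, 8.44 and 8.14 at P10 and 10.56 and 10.22 in adults. Both P5 and both P10 values lay below both adult values by more than 1 log2 unit. Its ratio of P5 to adult was -2.40 ± 0.17 SE (adjusted p = 0.00111), and its ratio of P10 to adult -2.05 ± 0.17 SE (adjusted p = 0.0046).

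Kcna1 lies between 2 other Shaker genes on chromosome 6, Kcna5 and Kcna6, with no protein-coding gene between them, and these neighbours had other ratios. Kcna6 was higher at P5 (0.57 ± 0.14 SE, adjusted p = 0.0232). Kcna5, a delayed rectifier described in vascular smooth muscle, was not called (0.33, adjusted p = 0.0623), though it passed in 3 of the alternatives, such as median centring in place of loess (0.57, adjusted p = 0.0457). The calls of neighbours differed on chromosome 3 as well. There Kcna2, another axonal Shaker subunit, was lower at both ages (-0.73 at P5 and -0.73 at P10), whereas Kcna3, best known from lymphocytes and microglia, was not called at either (0.17 and -0.08). On chromosome 11, Kcnip1, which encodes a calcium-binding partner of A-type channels, was not called at P5 (0.29), and its neighbour Kcnmb1 was lower (-1.26). Other neighbouring pairs had the same call against adult, such as Kcnj16 and Kcnj2 on chromosome 11, neither called at P5 (-0.31 and -0.32). Differences between neighbours were not tested.

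Among the voltage-gated subunits that were higher at P5, Kcna4 and Kcnd3 are known to carry fast-inactivating A-type currents. Kcna4 had log2 signal levels of 12.46 and 12.21 at P5, 9.78 and 11.10 at P10 and 10.04 and 10.67 in adults. Both P5 values were the highest, and the replicates disagreed at P10, where replicate 2 lay well above replicate 1. On single arrays its ratio of P10 to adult was 0.18 and 0.96 in the 2 replicates, and -0.79 and 0.0005 with the dyes exchanged. P5 RNA was Cy5 on every array, so the P5 ratios below rely on the dye term of the fit. The ratio of P5 to adult was 1.84 ± 0.34 SE (adjusted p = 0.011) and that of P5 to P10 1.80 ± 0.34 SE (adjusted p = 0.0179), with 2.52 and 1.07 in the 2 replicates.

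Kcnd3 had log2 signal levels of 11.34 and 11.40 at P5, 9.995 and 9.91 at P10 and 10.31 and 10.04 in adults. Its P5 values were above all P10 and adult values, which lay close together. It was higher at P5 than in adults by 1.13 ± 0.10 SE (adjusted p = 0.00179) and than at P10 by 1.32 ± 0.10 SE (adjusted p = 0.00431). With median centring in place of loess its ratio of P5 to adult was 0.59 and no longer passed (adjusted p = 0.0733). Its dimmer second probe read 0.00 ± 0.10 SE for P5 against adult, so the result rests on 1 probe.

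Kcna7 and Kcnh4 were highest at P5 as well. Kcna7, a Shaker-type subunit, had log2 signal levels of 9.94 and 9.68 at P5, 8.46 and 8.88 at P10 and 8.75 and 8.46 in adults, and its P5 values stood above the rest. The ratio of P5 to adult was 1.22 ± 0.24 SE (adjusted p = 0.0128), and its second probe was higher too, by 0.42. For P5 against P10 the brightest probe read 1.14, while the second read 0.20 and was not called (adjusted p over probes = 0.211). The call of Kcna7 between P5 and P10 therefore rests on 1 probe. For Kcnh4, of the ether-à-go-go family, the levels were 9.30 and 8.67 at P5, 8.30 and 7.67 at P10 and 8.51 and 7.81 in adults, and within each replicate P5 was the highest age, although the P5 value of replicate 2 was close to the adult value of replicate 1. Its ratio of P5 to adult was 0.85 ± 0.11 SE (adjusted p = 0.00461), which did not pass with no replicate block (adjusted p = 0.116). Kcnh8, of the same family, was well above background in all 4 P5 channels, in 2 of 6 P10 channels and in no adult channel, so its adult signal has only an upper bound, and its fitted ratio of P5 to adult was 0.57 ± 0.10 SE (adjusted p = 0.0108).

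Kcnq1, the subunit of the slow delayed rectifier, was lower at P5 than at both later ages. It had log2 signal levels of 8.88 and 9.06 at P5, 10.46 and 10.11 at P10 and 10.17 and 10.26 in adults, and the P5 values lay more than 1 log2 unit below every other value. The ratio of P5 to adult was -1.21 ± 0.16 SE (adjusted p = 0.00462) and that of P5 to P10 -1.30 ± 0.16 SE (adjusted p = 0.00825). P10 and adult did not differ detectably (0.08 ± 0.16 SE, adjusted p = 0.807). Silent modifier subunits form channels only together with other alpha subunits. Of the 7 tested, 4 were lower at P5 (Kcng2, Kcns3, Kcns2 and Kcnv1, from -0.95 to -0.47) and Kcng1 was higher (0.55). Over all genes, 23% were lower and 30.1% higher.

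**Figure D2:**
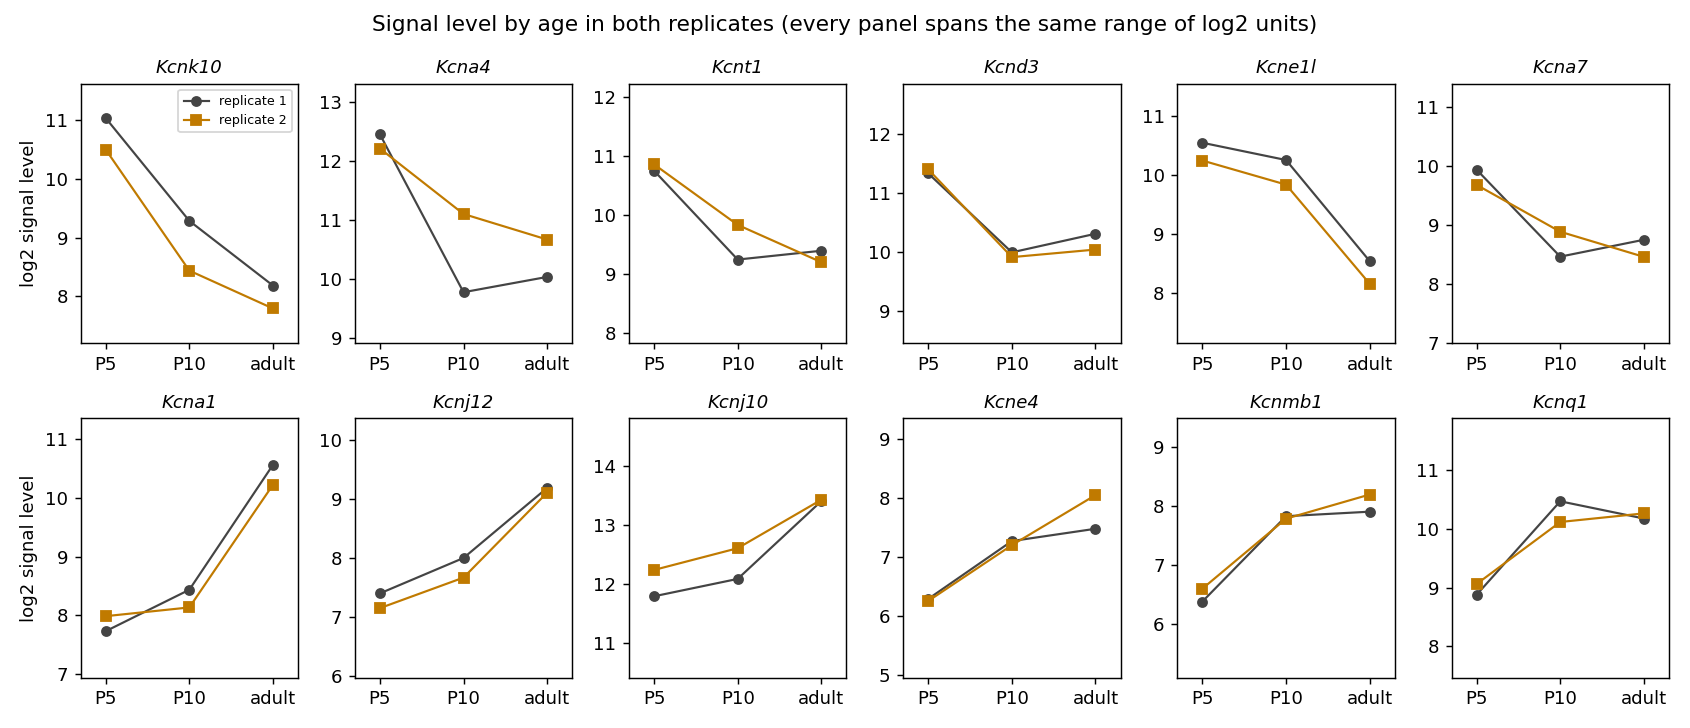
Log2 signal level at P5, P10 and adult for 12 of the 14 genes called at least 2-fold between P5 and adult (Kcne2 and Kcnab1 are not drawn), with replicate 1 in grey circles and replicate 2 in orange squares. Every panel spans the same number of log2 units on its own range. The genes of the upper row are highest at P5 in both replicates, and those of the lower row are lowest at P5 in both, Kcna1 at 7.73 and 7.99 against 10.56 and 10.22 in adults.

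Inward rectifiers, which pass potassium near the resting voltage and buffer it around glia and vessels, were lower or not called. Of 12 tested, 5 were lower at P5 and 4 at P10, where 23% and 9.1% of all genes were lower. None was higher at either age, or under any processing alternative. Kcnj12, a strong inward rectifier, had log2 signal levels of 7.40 and 7.15 at P5, 7.998 and 7.67 at P10 and 9.19 and 9.11 in adults. Its values rose in the order P5, P10 and adult in both replicates, and the 3 ages did not overlap. The ratios were -1.76 ± 0.13 SE at P5 (adjusted p = 0.00108) and -1.26 ± 0.13 SE at P10 (adjusted p = 0.00643), each against adult.

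Kcnj10, the inward rectifier with which astrocytes clear potassium, had log2 signal levels of 11.80 and 12.24 at P5, 12.09 and 12.61 at P10 and 13.41 and 13.43 in adults. All P5 and P10 values were below both adult values, while the P5 and P10 values overlapped across replicates. Its log2 ratio to adult was -1.36 ± 0.16 SE at P5 (adjusted p = 0.00342) and, at P10, -1.07 ± 0.16 SE (adjusted p = 0.0173). With median centring in place of loess, or with no replicate block, the P10 difference kept its size but no longer passed (adjusted p = 0.083 and 0.0517). The mean log2 signal of the 10 astrocyte markers was 11.35 and 11.62 at P5, 11.33 and 11.63 at P10 and 11.85 and 11.81 in adults. Of these 10, 3 were higher and 4 lower at P5, or 1 higher and 6 lower with median centring, and their part in the Kcnj10 values was not tested. Kcnj16, which joins Kcnj10 in a shared channel, was not called at P5 (-0.31 ± 0.11 SE, adjusted p = 0.0586) or P10 (-0.09, adjusted p = 0.628), although at P5 it passed with median centring (-0.72, adjusted p = 0.0301).

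Kcnj9 and Kcnj3 encode subunits of G-protein-gated inward rectifiers, best known from neurons. Kcnj9, the neighbour of Kcnj10 on chromosome 1, had log2 signal levels of 8.002 and 7.97 at P5, 8.14 and 7.47 at P10 and 9.23 and 8.47 in adults. Within each replicate the adult value was the highest, though the adult value of replicate 2 was only a little above the P10 value of replicate 1. The ratio to adult was -0.68 ± 0.21 SE at P5 (adjusted p = 0.0461) and -1.02 ± 0.21 SE at P10 (adjusted p = 0.0355). The P10 call was lost in 4 of the alternatives (adjusted p from 0.0541 to 0.12) and the P5 call in 3 (from 0.0719 to 0.0825), with no replicate block in both cases. Kcnj3 was lower at both ages, with log2 ratios of -0.47 and -0.55.

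Kcnj2 is the inward rectifier through which endothelium and smooth muscle of brain capillaries and arterioles sense potassium. It had log2 signal levels of 6.59 and 6.66 at P5, 7.19 and 6.82 at P10 and 6.98 and 7.05 in adults, where both P5 values were the lowest by a small margin and P10 and adult overlapped. It was called in no comparison, with a ratio of -0.32 ± 0.13 SE at P5 (adjusted p = 0.102) and -0.02 ± 0.13 SE at P10 (adjusted p = 0.956). Kcnj13, an inward rectifier of choroid plexus epithelium, was not called either (0.32 at P5 and 0.38 at P10), and its 2 replicates disagreed at P10 (0.78 and -0.01).

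Two-pore channels carry leak current at rest. Of 11 tested, P5 had 2 above adult and 3 below, against 30.1% and 23% of all genes. Kcnk10, a mechanically and lipid gated member, had the highest ratio of all 76 genes. It had log2 signal levels of 11.03 and 10.49 at P5, 9.28 and 8.44 at P10 and 8.18 and 7.80 in adults, and within each replicate the values fell from P5 to P10 to adult. The ratio to adult was 2.63 ± 0.14 SE at P5 (adjusted p = 0.000652) and 0.89 ± 0.14 SE at P10 (adjusted p = 0.0182). The P10 call did not pass with median centring (adjusted p = 0.0743) or with no replicate block (0.203).

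Kcnk2, the closest relative of Kcnk10 and a channel described in brain endothelium and smooth muscle, had log2 signal levels of 6.87 and 7.07 at P5, 7.04 and 7.23 at P10 and 7.09 and 7.13 in adults. The P10 values overlapped those of both other ages, and no comparison was called (-0.28 ± 0.12 SE at P5, adjusted p = 0.0986). Kcnk1 was lower at P5 than in adults (-0.90 ± 0.18 SE, adjusted p = 0.013), a call lost with no replicate block (adjusted p = 0.0771), and its P10 values of 9.41 and 8.45 spread widely. Kcnk3, an acid-sensitive leak channel described in vascular smooth muscle and pericytes, had log2 signal levels of 7.66 and 7.49 at P5, 8.21 and 8.07 at P10 and 8.31 and 8.26 in adults. It was lower at P5 than in adults (-0.63 ± 0.10 SE, adjusted p = 0.00746) and than at P10 (-0.51, adjusted p = 0.0196). Kcnk6 was lower at P5 as well (-0.91), with unequal replicates (-1.32 and -0.50).

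The channels activated by calcium or sodium were grouped with their relative Kcnu1 (Slo3), a voltage- and pH-gated channel of sperm. Of these 7 genes, 3 were higher at P5, Kcnu1 among them, and none lower, against 30.1% and 23% of all genes. Kcnt1, a sodium-activated channel of neurons, had log2 signal levels of 10.75 and 10.86 at P5, 9.25 and 9.83 at P10 and 9.40 and 9.20 in adults. Both P5 values stood above all others. The ratio of P5 to adult was 1.49 ± 0.19 SE (adjusted p = 0.0038). Kcnt2, the other sodium-activated channel, and Kcnu1 were higher at P5 too, by 0.42 and 0.68. Kcnn3 and Kcnn4, the small and intermediate conductance calcium-activated channels of endothelium, were not called against adult at either age (at P5 0.30 ± 0.14 SE, adjusted p = 0.122, and -0.40 ± 0.14 SE, adjusted p = 0.0681). At P5 Kcnn4 passed in 3 of the alternatives (from -0.96 to -0.40). Kcnn4 was lower at P5 than at P10 (-0.66 ± 0.14 SE, adjusted p = 0.023; with median centring adjusted p = 0.0681), with levels of 6.51 and 6.87 at P5, 7.34 and 7.42 at P10 and 7.15 and 7.12 in adults.

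Auxiliary subunits gave 3 of 13 higher and 4 lower at P5, against 30.1% and 23% of all genes. These subunits included members with large ratios in each direction. The MinK family, small single-pass proteins that modify voltage-gated channels, was split: Kcne1l and Kcne2 were higher and Kcne4 lower. Kcne1l had log2 signal levels of 10.55 and 10.24 at P5, 10.25 and 9.84 at P10 and 8.54 and 8.15 in adults. The P5 and P10 values were all well above the adult values. The ratio to adult was 2.09 ± 0.10 SE at P5 (adjusted p = 0.000535) and 1.68 ± 0.10 SE at P10 (adjusted p = 0.00225). Its second probe was lower in ratio but called the same way at both ages (1.12 and 0.73).

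Kcne4 had log2 signal levels of 6.29 and 6.25 at P5, 7.27 and 7.20 at P10 and 7.48 and 8.05 in adults, with both P5 values below all others. The ratio of P5 to adult was -1.43 ± 0.16 SE (adjusted p = 0.0028), and that of P5 to P10 -0.90 ± 0.16 SE (adjusted p = 0.0152), which did not pass without the 2 arrays with faulty background spots (adjusted p = 0.0507). Kcne2, an auxiliary subunit abundant in choroid plexus, had log2 signal levels of 11.82 and 11.32 at P5, 11.29 and 9.99 at P10 and 10.09 and 10.34 in adults. The P10 value of replicate 2 lay below both adult values, whereas that of replicate 1 was well above them. The call at P5 (1.23 ± 0.37 SE, adjusted p = 0.0414) was lost in 6 of the alternatives. Of 10 choroid plexus markers, a list added after results were known, 8 were higher and 1 lower at P5 (median 1.02), or 3 higher and 1 lower with median centring (median 0.48). Their mean log2 signal was 11.14 and 11.03 at P5, 11.21 and 10.76 at P10 and 9.98 and 10.24 in adults, and their part in the Kcne2 value was not tested.

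Kcnmb1, the smooth muscle beta subunit that raises the calcium sensitivity of the BK channel, had log2 signal levels of 6.38 and 6.60 at P5, 7.82 and 7.78 at P10 and 7.90 and 8.19 in adults. Both P5 values lay more than 1 log2 unit below every P10 and adult value. The ratio of P5 to adult was -1.26 ± 0.13 SE (adjusted p = 0.00261) and that of P5 to P10 -1.12 ± 0.13 SE (adjusted p = 0.00745), while P10 and adult did not differ detectably (-0.13 ± 0.13 SE, adjusted p = 0.592). Of 8 smooth muscle markers, 6 were lower at P5 than in adults and 6 than at P10, and their mean log2 signals were 9.89 and 9.16 at P5, 11.18 and 11.65 at P10 and 11.52 and 11.63 in adults, and their part in the Kcnmb1 value was not tested. Kcnab1, a beta subunit of Shaker channels, was lower at P5 (-1.16 ± 0.17 SE, adjusted p = 0.00599). Kcnab2 was not well above background in any P5 channel, so its P5 signal has only an upper bound, and its fitted ratio of P5 to adult was -0.46 ± 0.12 SE (adjusted p = 0.0286).

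The second comparison set P10 against adult, and here few genes were higher. Of the 76 genes, 2 (Kcne1l and Kcnk10) were higher and 12 lower, which is 2.63% and 15.8%, against 8.42% and 9.1% of all genes tested. Together these were 18.4% of the channel genes, against 17.5% of all genes. At least 2-fold differences were called for 1 gene upwards and 6 downwards, and for 2.73% and 2.69% of all genes. The median log2 ratio was -0.21 in the channel genes and 0.01 in all genes. The medians of the 2 replicates were -0.22 and -0.22. The count of lower genes depended on the processing: it was 1 when the background model was fitted on all spots and 5 both with median centring and with no replicate block.

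The 12 lower genes at P10 were 6 voltage-gated subunits (Kcna1, Kcna2, Kcnc2, Kcng2, Kcnh5 and Kcnv1), 4 inward rectifiers (Kcnj3, Kcnj9, Kcnj10 and Kcnj12), the BK alpha subunit Kcnma1 and the beta subunit Kcnab3. No two-pore channel was called lower at P10, and no voltage-gated subunit was called higher. The two-pore gene Kcnk1 was close to the threshold at P10 (-0.72 ± 0.18 SE, adjusted p = 0.0539). It passed with an intensity trend and robust variance prior (adjusted p = 0.0489). Mature neuron markers were lower at P10 in 6 of 11 (in 2 with median centring), at mean log2 signals of 10.26 and 9.87 against 11.24 and 10.62 in adults, and their part in these values was not tested.

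**Figure D3:**
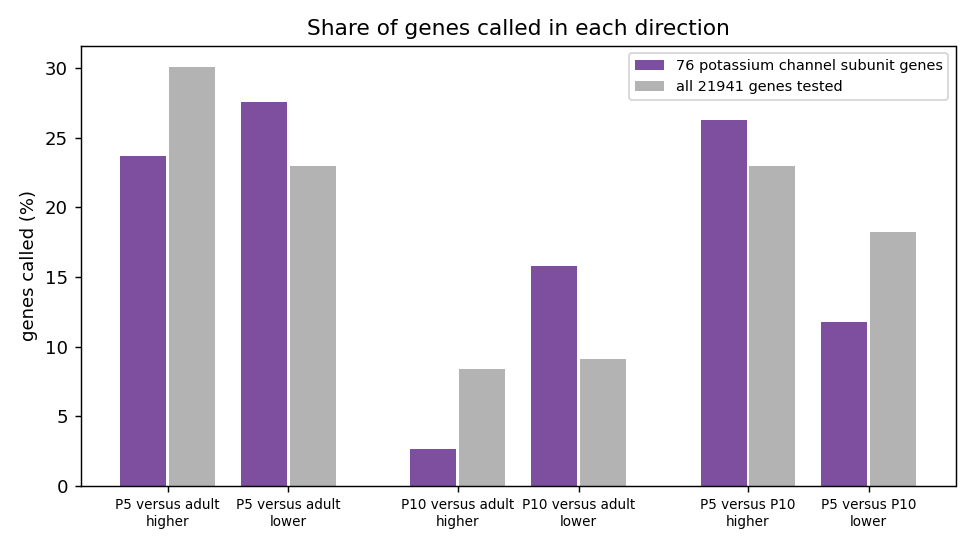
Share of genes called higher or lower (adjusted p below 0.05) in each comparison, in percent, for the 76 potassium channel genes (purple) and all 21941 genes tested (grey). At P10 against adult the purple bar is below the grey one for higher genes (2.63% against 8.42%) and above it for lower genes (15.8% against 9.1%).

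The third comparison, P5 against P10, spans the 5 days in between. Of the 76 genes, 20 were higher at P5 and 9 lower, 26.3% and 11.8%, against 23% and 18.2% of all genes. Differences of at least 2-fold were called for 7 higher and 2 lower genes, and for 9.11% and 2.87% of all genes. The 2 lower ones were Kcnq1 and Kcnmb1. The 7 higher ones were Kcna4, Kcnk10, Kcnd3, Kcnt1, Kcna7, Kcnh4 and Kcnma1. Of the 32 voltage-gated subunits, 11 were higher and 2 lower, and of the 12 inward rectifiers 0 and 3, against 23% and 18.2% of all genes. The median log2 ratio was 0.11, against 0.06 for all genes, with 0.0024 and 0.22 in the 2 replicates. In either direction 38.2% of the 76 genes were called, close to the 41.2% of all genes.

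A group of 3 genes was lowest at P10: its members were lower at P10 than in adults and lower at P10 than at P5. These were Kcnma1, Kcnab3 and Kcnc2, or 3.95% of the 76, where 288 genes, 1.31% of all tested, had this pattern. None of the 76 was highest at P10, against 2.68% of all genes. Both conditions use the same P10 RNA. The count was 1 with median centring and with no replicate block, 0 with the background model fitted on all spots, where no gene of the array passed, and 3 or 4 in the other alternatives.

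Kcnma1, the pore of the large conductance calcium-activated BK channel of smooth muscle and neurons, had log2 signal levels of 10.49 and 10.55 at P5, 9.61 and 9.25 at P10 and 10.44 and 10.03 in adults. P10 was the lowest age in both replicates, and the P5 values lay just above the adult ones. The ratio of P10 to adult was -0.81 ± 0.12 SE (adjusted p = 0.0152) and that of P5 to P10 1.05 ± 0.12 SE (adjusted p = 0.00671). With median centring neither passed (adjusted p = 0.126 and 0.116). These values rest on the brightest of 3 probes: the others gave 0.31 and 0.26 for P5 against P10 and were not called (adjusted p over probes = 0.193 and 0.14). The pore gene and its smooth muscle partner differed in order: Kcnmb1 was lowest at P5, while Kcnma1 at P5 did not differ detectably from adult (0.24 ± 0.12 SE, adjusted p = 0.141).

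Kcnab3, another Shaker beta subunit, had log2 signal levels of 8.81 and 8.60 at P5, 7.76 and 7.73 at P10 and 9.18 and 8.78 in adults, with both P10 values below all others. The ratio of P10 to adult was -1.18 ± 0.12 SE (adjusted p = 0.00668). Kcnc2, a Shaw subunit of fast-spiking interneurons, was lower at P10, at a log2 ratio of -1.01 ± 0.12 SE (adjusted p = 0.00904) and at P5, at -0.51 ± 0.12 SE (adjusted p = 0.0195). The P5 call of Kcnc2 was lost in 4 of the alternatives, at -0.24 without the 2 arrays with faulty background spots (adjusted p = 0.289). Of 11 mature neuron markers, 6 were lower at P10 than in adults and 5 were lower at P10 than at P5, and none was higher at P10 in either. With median centring 1 was lower and 2 were higher at P10 than at P5. Their part in the order of these 3 genes was not tested.

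**Figure D4:**
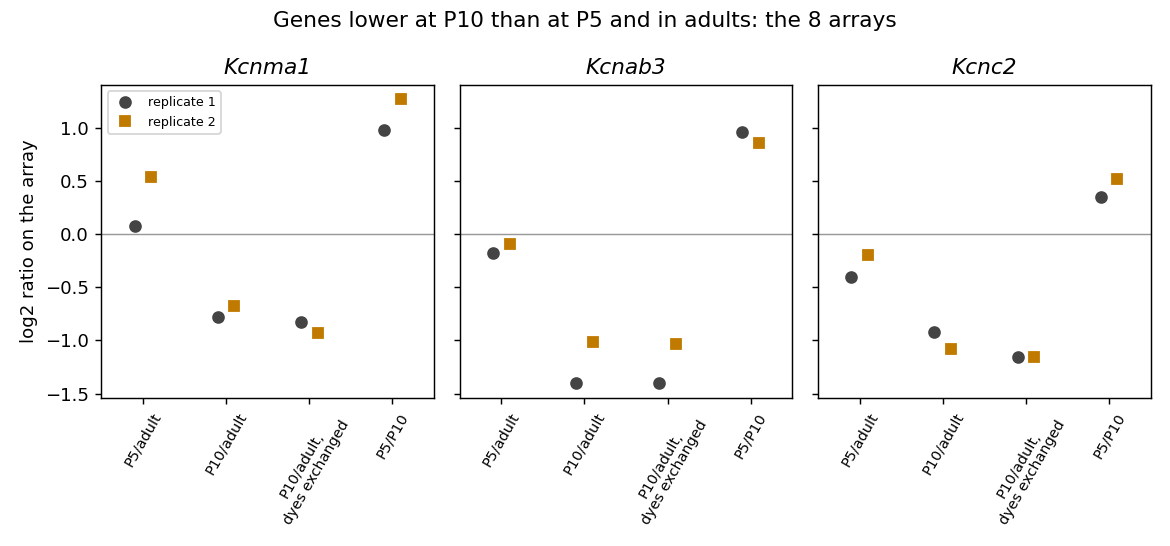
Log2 ratio on each of the 8 arrays for the 3 genes called lower at P10 than at P5 and in adults, with the first named age over the second, replicate 1 in grey circles and replicate 2 in orange squares. Every P10/adult ratio is below 0 and every P5/P10 ratio above 0.

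Of the 81 genes, 54 had 1 probe and 27 had several. For 15 genes several probes were bright enough to be compared, and in 4 of them (Kcna5, Kcnc1, Kcnip4 and Kcnma1) the probes differed in sign between P5 and adult. For Kcnc1, a Shaw-type subunit, the probes were called in opposite directions. Its brightest probe was higher at P5 (0.55 ± 0.12 SE). This call of the gene was lost with its sign kept in 5 of the alternatives, and also in the mean over probes given below. The second probe read -0.20 ± 0.12 and the dimmest was lower (-1.35 ± 0.11). At P10 all 3 were negative, at -0.33, -0.93 and -1.96, and all 3 were higher at P5 than at P10, by 0.88, 0.73 and 0.61. The mean over its probes reversed the P5 ratio to -0.33 (adjusted p = 0.0562). The 3 Kcnma1 probes read 0.24, -0.03 and -0.31 at P5 and -0.81, -0.34 and -0.57 at P10, of which the first and the third were called at P10 (adjusted p over probes = 0.0146 and 0.0359). The probes of a gene can target different transcripts, and which transcripts they measure is not given by the files used here.

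**Figure D5:**
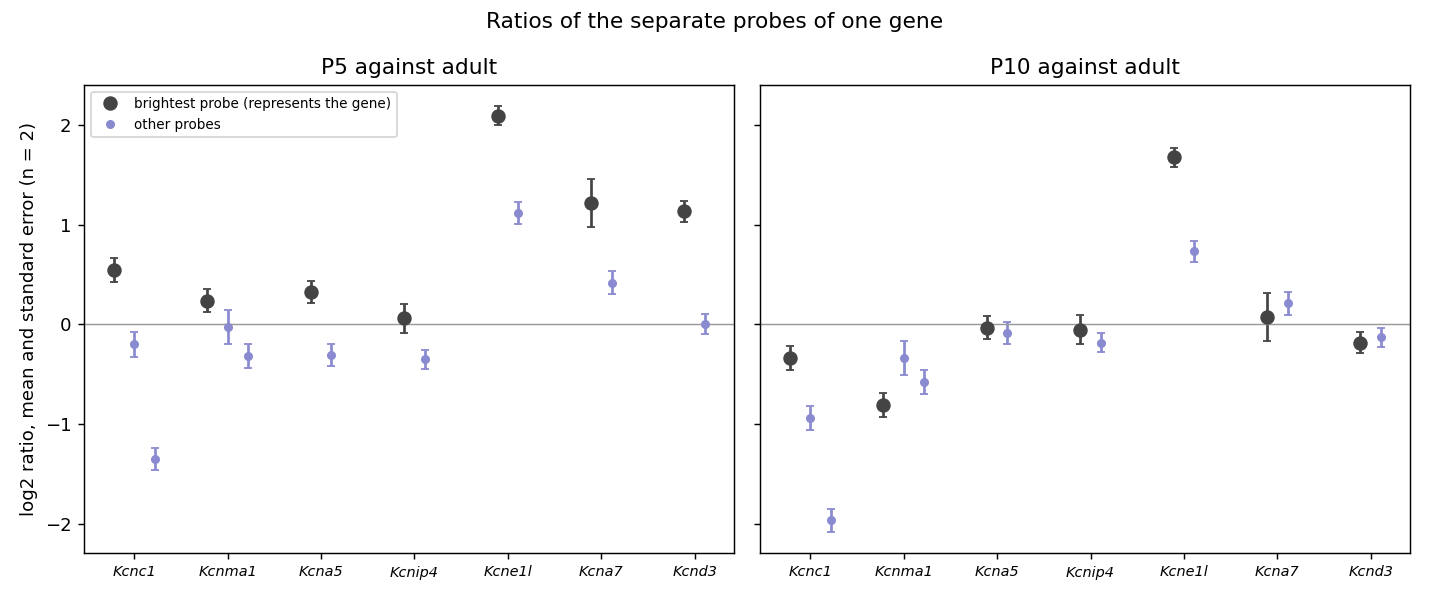
Log2 ratio to adult at P5 (left) and P10 (right) for the separate probes of 7 genes, with bars of 1 standard error (n = 2). Large grey points are the brightest probe, which stands for the gene elsewhere, and small purple points the other probes. The Kcnc1 probes span 0.55 to -1.35 at P5, and at P10 all 3 are below 0.

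Genes that work with potassium channels outside the Kcn symbols were described by lists chosen with earlier results of these data known. Of 15 channel partners, 13 were tested (all but Lrrc26 and Lrrc52). At P5, 6 were above and 3 below adult, against 30.1% and 23% of all genes. Abcc8, the sulfonylurea receptor of pancreatic and neuronal ATP-sensitive channels, was higher at P5 (1.01 ± 0.10 SE, adjusted p = 0.00217). Abcc9, the sulfonylurea receptor of vascular ATP-sensitive channels and itself a pericyte marker, was lower at P5 (-1.54 ± 0.14 SE, adjusted p = 0.00161) and at P10 (-0.85). Kcnj11, the pore subunit that pairs with Abcc8, was not called at P5 (-0.18, adjusted p = 0.266). Dpp6, a partner of A-type channels such as Kcnd3, was higher at P5 (1.23 ± 0.16 SE, adjusted p = 0.00436). Its relative Dpp10, another such partner, was not called at P5 (-0.28, adjusted p = 0.255) or at P10 (-0.74, adjusted p = 0.0573). Lrrc55, a gamma subunit of the BK channel, had its highest ratio at P10 (3.10 ± 0.17 SE, adjusted p = 0.00225), and it was higher at P5 too (1.89). Lrrc38, the other BK gamma subunit tested, was higher at P5 (0.65 ± 0.18 SE, adjusted p = 0.0311) and not called at P10 (-0.10, adjusted p = 0.765).

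A further list held sodium pump subunits, modulators of the pump and chloride cotransporters. Of its 14 tested genes, 1 was higher and 4 lower at P5, against 30.1% and 23% of all genes. At P10, 2 were higher and 3 lower, against 8.42% and 9.1% of all genes. Fxyd6, a modulator of the sodium pump, was higher at both ages (1.92 and 0.91) and Fxyd5, another modulator, lower at both (-1.70 and -1.50). Slc12a5, the chloride extruder of mature neurons, was lower at P10 (-1.12 ± 0.14 SE, adjusted p = 0.0114) and not called at P5 (-0.21, adjusted p = 0.268). Among the cyclic nucleotide gated channels, relatives of the Kcnh family, 6 of 10 were tested. At P5, 2 of these 6 were higher and none lower, against 30.1% and 23% of all genes. Hcn3 had the highest ratio of them (1.72 ± 0.14 SE, adjusted p = 0.00139).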

How the data were processed

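Two-colour arrays were made from 100 ng of total RNA per channel, per the labels' protocols. The deposited files come from Agilent Feature Extraction (version 10.5.1.1 per the file headers, 12.6 per the submitters' processing notes). Per the file headers, spot and background signals are intensity values and the deposited log ratio is a log10 value; the values here use median intensity. In R 4.3.3 with limma 3.58.1, normexp (offset 50) corrected the background and loess (span 0.3) normalized within each array, control and outlier spots having weight 0. Spots of a probe were averaged. Spots with a signal more than 100 below the recorded background were corrected with the median background and then dropped. They numbered 4 on 1 array of replicate 1 (P10/adult, dyes exchanged) and 7 on 1 array of replicate 2 (P5/P10).

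Of 39429 probes, 27427 matched a symbol in a RefSeq table (GRCm38.p6), whereas the probe design names the build mm9. The filter kept 27190 probes, those with all channels of some age well above background, and the brightest stood for a gene. The 4 log2 ratios of a slide, computed here from the deposited intensities, were fitted with P5, P10 and dye terms. The limma model of age and replicate had 2 residual degrees of freedom and 2.91 from the variance prior. Slide, scan and replicate number coincide, so pairing by replicate comes from the design and values per replicate are values within a batch. P5 RNA was Cy5 on every array that held it. Per channel, 64.4% to 72.65% of probes were well above background, and the number of arrays limits the precision. The fit was tested on simulated data.

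The members and the gene lists were chosen with earlier results of these data known, the choroid plexus list and the alternatives without 2 arrays and with offset 1 after seeing the data. Genes named are those called with at least a 2-fold ratio, up to 12 per direction, members with a known vascular or glial role, and any gene whose probes were called in opposite directions, which gave 29 genes, all of them tested. Other genes named were chosen after their values were seen. Alternatives changed the background correction, normalization, signals, filter, probe choice, replicate block, dye term, arrays and variance prior. A few Kcn genes are not reported here, and counts of channel genes leave them out.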

Additional observations from a re-analysis of the deposited data

Results flagged for a closer look

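For 3 genes the ratios to adult at P5 and P10 had opposite signs in both replicates, and the difference between these ages was called. Kcnd3 was above adult at P5 and below it at P10, and its P5 value exceeded its P10 value by 1.32 on the log2 scale (adjusted p = 0.00431, limma). The same difference was 1.07 for Kcnh4 (adjusted p = 0.00634) and 1.05 for Kcnma1 (adjusted p = 0.00671). The other probes of Kcnd3 (0.13) and Kcnma1 (0.31 and 0.26) were not called for this difference (adjusted p over probes = 0.315, 0.193 and 0.14), so both rest on 1 probe. With no replicate block the Kcnh4 difference did not pass (adjusted p = 0.0908). In Kcnd3 and Kcnh4 only the P5 ratio to adult was called, and in Kcnma1 only the P10 ratio, so the sign of the other ratio did not pass the test. With median centring in place of loess, the P5 ratio of Kcnma1 was -0.27, the same sign as at P10. P5 RNA was never labelled with Cy3, and the part of the dye in these differences was not tested.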

How the results depend on the processing

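Of 78 counts of called channel genes under alternatives, 62 were within 1.5 times the reported count. With the background model fitted on all spots, the counts of genes higher and lower were 7 and 11 for P5 against adult, 0 and 1 for P10 against adult and 0 and 0 for P5 against P10, where no gene of the whole array was called. With no replicate block, 10 genes were higher at P5, 1 higher and 5 lower at P10, and 11 higher at P5 than at P10. That alternative was fitted to the single-channel levels, so it dropped the dye term as well as the pairing by slide. Median centring gave 1 higher and 5 lower at P10, and the authors' processed signals gave 4 higher. Without the 2 arrays with faulty background spots, an alternative chosen after seeing the data, 11 were higher at P5, and 13 higher and 5 lower for P5 against P10. Leaving out a replicate leaves no residual degrees of freedom, so no counts were made. The median ratio ranged over the alternatives from -0.45 to -0.096 for P5, -0.37 to -0.14 for P10 and 0.0024 to 0.25 for P5 against P10. Median centring moved the median of all genes by -0.168 for P5 against adult and -0.176 for P5 against P10.

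Of 46 called ratios of the genes named by rule, 13 passed under every tested alternative, and 28 passed under all but, at most, the background model on all spots. Kcnc1 at P5 reversed to -0.334 with the mean over its probes, and the ratio of P5 to P10 of Kcne1l reversed to -0.0319 with median centring. The median of the auxiliary subunits at P5, -0.09, was 0.07 with the background model on all spots, 0.04 with no dye term and 0.08 without the dye-exchanged arrays. Except where stated, the cause was not tested.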
